A study of Danio rerio with 2 samples.

Results

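The apolipoprotein genes described here are 9 zebrafish genes, *apoa1a*, *apoa1b*, *apoa2*, *apoa4b.1*, *apoba*, *apobb.1*, *apoc1*, *apoea* and *apoeb*. They were chosen by name, and all 9 were found among the 31353 gene symbols of the count tables. Their levels were read in 5 gated kinds of cell and in the cells outside every gate, separately in each library. A hepatocyte-gated cell held at least 2 unique molecular identifiers (UMIs, 1 per captured mRNA molecule) of *tfa* (transferrin) and at least 2 of *fabp10a* (the liver fatty acid binding protein). A macrophage-gated cell held at least 1 UMI of *mfap4* or *mpeg1.1*, a skin-gated cell had at least 1% of its UMIs in the keratin genes *krt4* and *krt5*, a neuron-gated cell held at least 1 UMI of *elavl3*, and a hair cell-gated cell held at least 3 of *myo6b*. Cells that passed 2 or more gates were set aside, and those that passed none are called the rest.

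Apolipoproteins are the proteins that coat lipoprotein particles, which carry triglyceride and cholesterol through blood. ApoB is the single large structural protein of very low density, low density and intestinal lipoproteins, whereas apoA-I and apoA-II are the main proteins of high density lipoprotein, and the small apoC and the apoE proteins move between particles and steer their breakdown and uptake. In vertebrates the liver and the intestine make most of them, and apoE is also made by macrophages, microglia and glia. Zebrafish hold duplicated copies of several members, and *apoeb* is a commonly used microglia marker in larval fish. In the RefSeq gene table of the GRCz12tu assembly, which matched all 9 members, *apoeb* and *apoc1* were next to each other and *apoa2* lay between *apoc4* and *apoc2*, while *apoea* stood beside *apoa4a*. The Ensembl identifiers in the files were ENSDARG00000012076 (*apoa1a*), ENSDARG00000101324 (*apoa1b*), ENSDARG00000015866 (*apoa2*), ENSDARG00000040298 (*apoa4b.1*), ENSDARG00000042780 (*apoba*), ENSDARG00000022767 (*apobb.1*), ENSDARG00000092170 (*apoc1*), ENSDARG00000102004 (*apoea*) and ENSDARG00000040295 (*apoeb*).

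The study asked how loss of *hsd17b7*, an enzyme gene of cholesterol synthesis, changes sensory hair cells. Larvae of the Tg(*Brn3c*:mGFP) line, in which a *Brn3c* promoter drives a membrane-bound GFP in hair cells, were dissociated at 4 days post-fertilization, and GFP-positive cells were sorted and sequenced with the 10x Genomics 3′ v4 kit. The control library came from wild-type larvae and the mutant library from *hsd17b7*-KO larvae, a CRISPR/Cas9 line whose selected allele is a small frameshift deletion, and both carry the transgene and received no drug. There was 1 library per genotype, and the number of larvae pooled in each is not given in the sources used here, so every interval below is a 95% interval for counting error only and no test between genotypes is possible.

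The control library held 180590990 UMIs in 19270 barcodes and the mutant library 81920586 UMIs in 10119 barcodes, of which 17385 and 8322 were kept because they showed 500 or more genes and no more than 20% of UMIs from mt- genes. The libraries shared 49 barcode sequences, 37 of them among the kept ones of both. The labels call the cells hair cells, yet the hair cell gate alone held 1142 control and 948 mutant cells, or 6.57% and 11.4% of those kept. The 12 hair cell markers not used for gating summed to 12746 and 22299 counts per 1000000 UMIs (CPM) there, with none at 0. Transcripts of the mGFP reporter were read at 564 and 1040 CPM in hair cell-gated cells. They were also read at 318 and 398 CPM in neuron-gated cells, control first, in 48.9% and 51.8% of those cells. The targeted gene did not check the labels, since hair cell-gated cells held *hsd17b7* at 134 CPM (control) and 258 CPM (mutant), so "mutant" below means the library with that label. The control rest held 5972 cells with at least 10% globin UMIs and the mutant rest held none. Features named for the mitochondrial genome took 11.8% of control and 1.70% of mutant hepatocyte-gated UMIs. The libraries were made with different Cell Ranger versions, so that version, genotype and sort cannot be told apart.

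The 9 genes divided by where they were read, and the plot of where their UMIs were found shows them. In the control library, cells passing the hepatocyte gate held 98.1% of all *apoa2* UMIs, 98.0% of *apoa1b*, 96.5% of *apoba*, 88.7% of *apoc1*, 86.6% of *apoa4b.1* and 79.9% of *apobb.1*. In the mutant library these shares were 99.2%, 99.3%, 98.8%, 92.8%, 89.1% and 85.1%. The 6 genes were therefore mostly read in liver cells in both libraries. The exceptions were *apoeb*, *apoa1a* and *apoea*. Cells passing the macrophage gate held 45.8% of control and 81.6% of mutant *apoeb* UMIs, and those passing that gate alone held 41.2% and 69.2%. Of *apoa1a*, 66.1% and 80.1% of UMIs, and of *apoea*, 72.5% and 87.5%, lay in a small set of 111 control and 96 mutant barcodes rich in *fabp2* and *fabp1b.1*, which is described below.

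**Figure D1:**
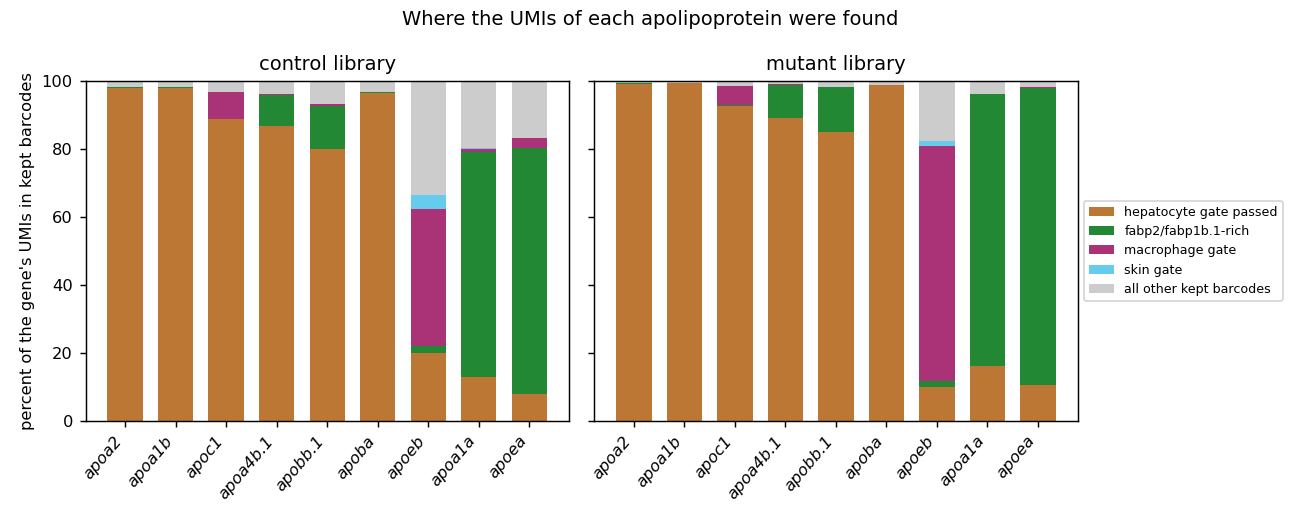
Share of each gene's UMIs in kept barcodes (percent, bars stacked to 100) by cell group in the control library (left) and the mutant library (right); "hepatocyte gate passed" includes cells that passed another gate too. *apoa2*, *apoa1b* and *apoba* are almost wholly brown (liver), *apoeb* is largely purple (macrophage, 41.2% and 69.2%), and *apoa1a* and *apoea* are largely green.

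In hepatocyte-gated cells (1031 control and 553 mutant), apolipoprotein transcripts were among the most abundant of all. *apoa2*, the structural protein of high density lipoprotein, ranked second of all genes by UMIs in the control at 36379 CPM (36304 to 36454) and first in the mutant at 75223 CPM (75081 to 75365). *apoa1b*, one of the copies of the main high density lipoprotein protein, ranked 4 and 2, at 18005 and 35708 CPM. *apoc1*, a small protein that in mammals inhibits lipoprotein lipase and the cholesterol ester transfer protein, stood at 1686 CPM (1669 to 1702) and 12796 CPM (12738 to 12855), rank 110 and rank 6. *apoa4b.1*, an apoA-IV protein of triglyceride-rich particles, was read at 1305 and 2498 CPM. Because the kit counts molecules from their 3′ ends, these levels were not divided by gene length, and differences in capture between genes were not corrected.

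Both apoB genes were lower than the small apolipoproteins. *apobb.1* stood at 254 and 518 CPM and *apoba* at 121 and 462 CPM, control first. *apobb.1* was therefore the higher apoB gene in each, by more in the control. Of the apoE pair, *apoeb* was read at 105 and 65.0 CPM and *apoea* at 1.65 and 0.77 CPM. *apoa1a*, the other copy of apoA-I, reached only 14.2 and 26.5 CPM. Together the 9 genes made up 5.79% of control and 12.7% of mutant hepatocyte-gated UMIs. How the authors' counting treated any reads that match more than 1 copy (*apobb.1* with *apobb.2*, the *apoa4b* copies, *apoa1a* with *apoa1b*) was not examined. Levels of single copies are uncertain to that extent.

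**Figure D2:**
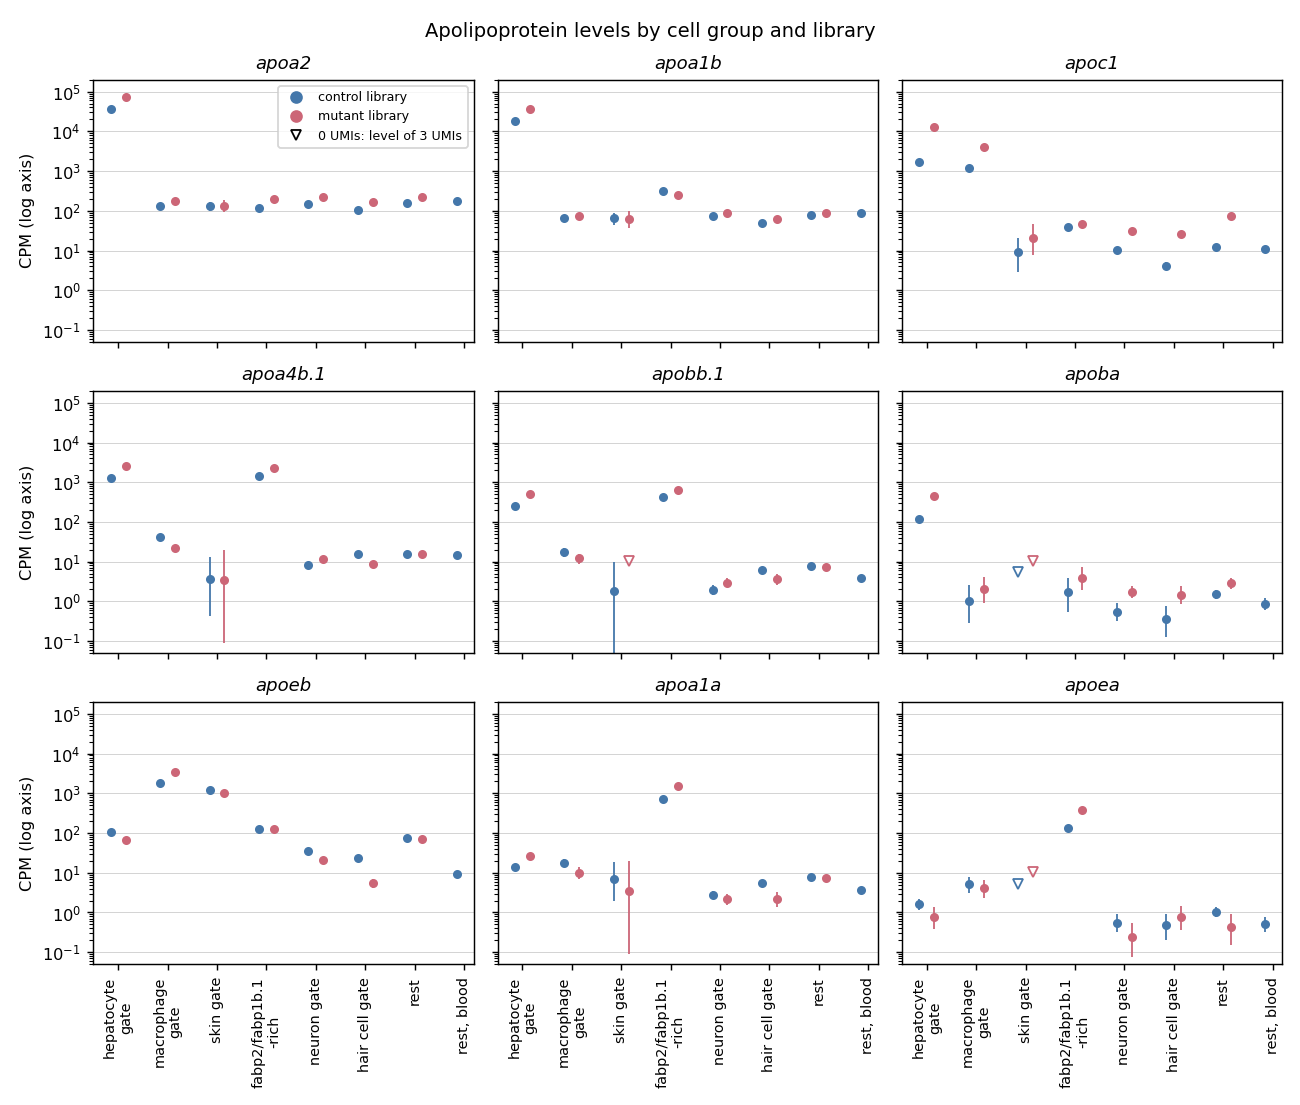
Level of each apolipoprotein (CPM, log axis) in each cell group for the control (blue) and mutant (red) library, with exact Poisson 95% intervals for counting error; open triangles mark 0 UMIs and stand at the level of 3 UMIs. The neuron, hair cell and rest groups are drawn without the *fabp2*/*fabp1b.1*-rich barcodes and the rest without blood. *apoa2* and *apoa1b* lie at 18005 CPM or more in hepatocyte-gated cells and at 49.4 to 228 CPM in every other group except the *fabp2*/*fabp1b.1*-rich barcodes, while *apoeb*, *apoa1a* and *apoea* peak elsewhere.

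The levels varied from cell to cell within the hepatocyte gate. In the control library the median cell held 32530 CPM of *apoa2*, with 5283 at the 5th and 72226 at the 95th percentile, and in the mutant library 67320 CPM, with 19534 and 111812. *apoc1* was the most uneven of the abundant members in the control, with a median of 844 CPM and a range from 0 at the 5th to 7907 at the 95th percentile. In the mutant library its median was 12769 CPM (1367 to 33939), and 69.3% of mutant cells lay above the control's 95th percentile. For *apoa2*, *apoa1b* and *apoa4b.1* the cells of both libraries overlapped more, with 42.5%, 37.1% and 18.4% of mutant cells above that point, whereas *apoba* had 53.7%. Median *apoba* was 73.4 CPM in control cells and 445 CPM in mutant cells. *apoeb* had a median of 0 in both libraries, and 43.2% of control and 45.2% of mutant cells held any UMI of it.

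**Figure D3:**
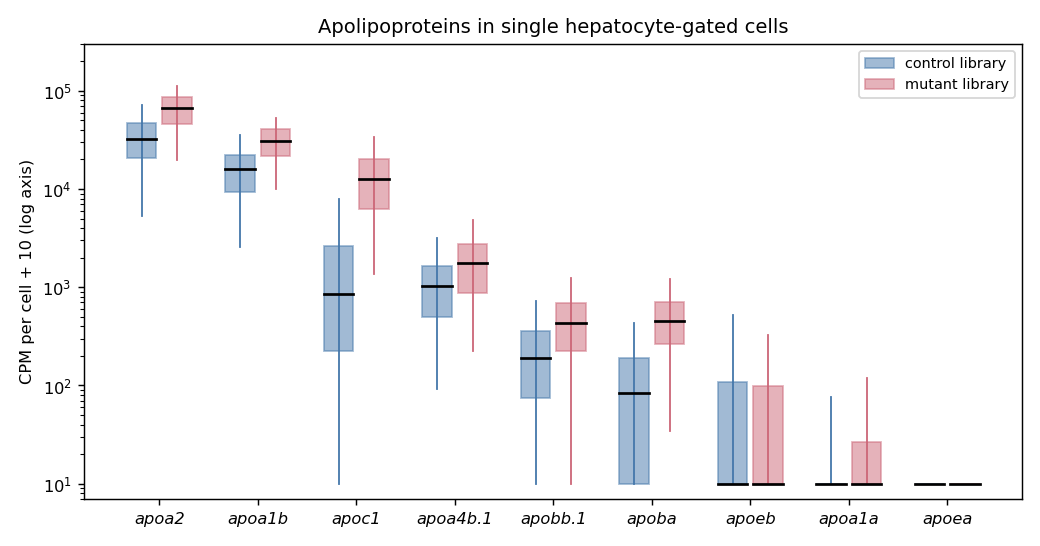
CPM per single hepatocyte-gated cell plus 10 (log axis) for each member in the control (blue, 1031 cells) and mutant (red, 553 cells) library; boxes span the 25th to 75th percentile, lines the 5th to 95th, and black bars are medians. The boxes of *apoc1* (medians 844 and 12769 CPM) and *apoba* (73.4 and 445 CPM) do not overlap between the libraries, while those of *apoa2*, *apoa1b*, *apoa4b.1* and *apobb.1* do.

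Cells with much of one abundant member held much of the others. Across control hepatocyte-gated cells, log2(CPM + 10) of *apoa2* correlated with that of *apoa1b* at Pearson's r = 0.90, with *apoa4b.1* at 0.73 and with *apoc1* at 0.53, and the mutant values were 0.92, 0.68 and 0.57. The coefficients with *apobb.1* (0.33 and 0.38) and *apoba* (0.27 and 0.26) were lower, and these genes also had far fewer UMIs per cell. The gating gene *tfa*, no apolipoprotein, correlated with *apoa1b* at 0.66 and 0.78 and with *apoa2* at 0.58 and 0.76, control first. Such correlation was therefore not particular to the apolipoproteins. The coefficients are descriptions over cells of 1 library, which share its depth and free RNA.

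Set against the control library, 7 of the 9 members were higher in mutant hepatocyte-gated cells and both apoE genes were lower. Of all 19411 genes with at least 10 UMIs in these cells, 35.3% were higher, and of the 10914 with at least 100 UMIs 39.8%. The largest ratio among the members was that of *apoc1*, 7.59-fold or a log2 ratio of 2.92 (2.91 to 2.94), followed by *apoba* at 3.81-fold or 1.93 (1.87 to 1.99). *apoa2* (1.05), *apobb.1* (1.03), *apoa1b* (0.99), *apoa4b.1* (0.94) and *apoa1a* (0.91) lay close together near a doubling, which was also the ratio of the gating genes *tfa* (0.93) and *fabp10a* (0.93). *apoeb* had a log2 ratio of -0.69 (-0.80 to -0.58), which was -0.20 when cells passing several gates were assigned to the first. For *apoea* the ratio of -1.10 (-2.21 to -0.12) came from 41 and 11 UMIs, of which 1 mutant cell held 81.8%, and it became 2.09 under that assignment. The sum of the 9 genes had a log2 ratio of 1.14 (1.13 to 1.14). The content of the gate differed too, with hepatocyte markers summing to 9710 and 15002 CPM and blood markers to 14649 and 13.3 CPM, and their part in the ratios was not tested. Without globin-rich barcodes the summed ratio was 1.11.

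Of the 8 members with at least 100 UMIs in these cells, 4 were at least 2-fold higher in the mutant library (*apoc1*, *apoba*, *apoa2* and *apobb.1*) and 0 were at least 2-fold lower. Among all 10914 genes with that many UMIs, 5.45% were at least 2-fold higher and 21.0% at least 2-fold lower. The median of the 8 members was a log2 ratio of 1.01, beside a median of -0.19 for all those genes. The count of members rests on the fold chosen and the scaling, since 3 further members lay between 1.87- and 1.98-fold. It ran from 2 to 8 over the alternatives, and with mitochondrial features left out of the totals it was 2. Relative to the median gene the ratio of *apoc1* was 3.12, that of *apoba* 2.12, and those of the other higher members at most 1.24. Leaving out the 5% deepest barcodes brought *apoa4b.1* to 0.30 and *apoa1a* to 0.30.

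**Figure D4:**
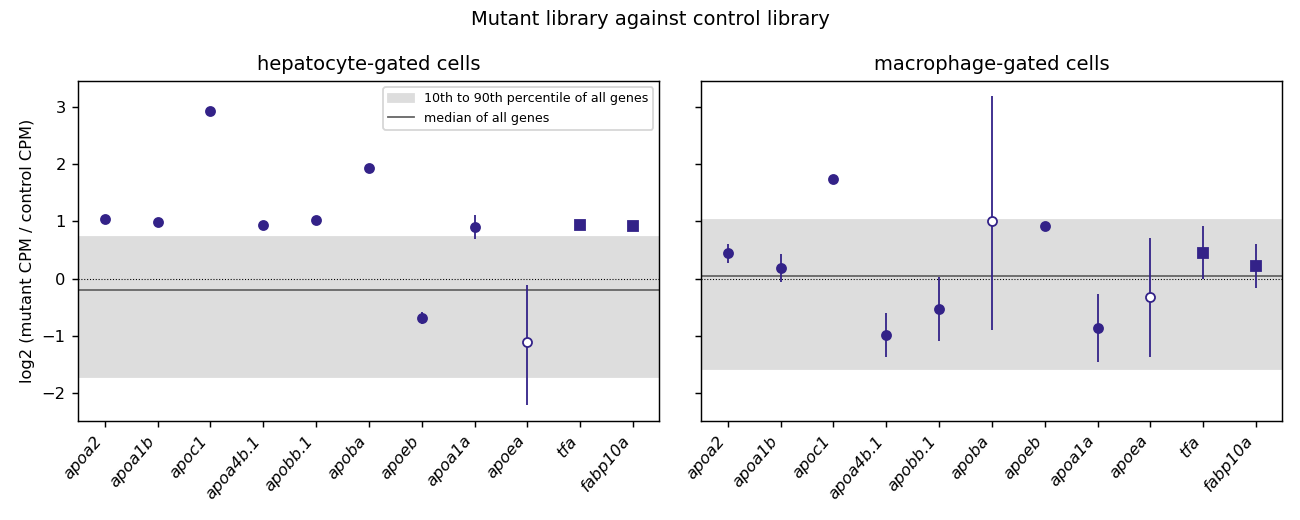
Log2 ratio of mutant to control CPM for the members (circles) and the gating genes *tfa* and *fabp10a* (squares) in hepatocyte-gated (left) and macrophage-gated (right) cells, with 95% intervals for counting error; open circles have under 100 UMIs, the line is the median and the grey band the 10th to 90th percentile of all genes with at least 100 UMIs. In hepatocyte-gated cells *apoc1* (2.92) and *apoba* (1.93) stand above the group of members near 1, and *apoeb* (-0.69) lies below 0.

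Other genes of the lipoprotein pathway in hepatocyte-gated cells did not share one direction. Of 10 other apolipoprotein genes in the files, 5 were at least 2-fold higher in the mutant library and 3 at least 2-fold lower, with a median log2 ratio of 0.42, beside 6.83% higher and 30.1% lower among the 19411 genes with at least 10 UMIs. *apoc2*, the activator of lipoprotein lipase, stood at 988 and 2658 CPM (log2 ratio 1.43), and *apom*, a carrier of sphingosine-1-phosphate, at 794 and 1637 CPM (1.04). *apobb.2*, the third apoB gene, had 2.90 and 21.1 CPM (2.86).

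Of the 4 assembly genes, 0 were at least 2-fold higher and 1 lower. The lower one, *tm6sf2*, had 7.50 and 0.28 CPM, and it was not lower in liver cells alone. It had 40.8 and 0.51 CPM in macrophage-gated cells and 94.8 and 0 CPM in skin-gated cells. *mttp*, which loads lipid onto apoB, had 174 and 245 CPM (0.49). Of 8 genes that act on lipoproteins in plasma, 1 was 2-fold higher and 1 lower. *lipca*, hepatic lipase, had a log2 ratio of 1.37, and *lcat*, which makes cholesterol esters on high density lipoprotein, one of -1.03 (131 and 64.1 CPM). Of 12 receptor and uptake genes, 1 was higher and 5 were lower, among them *lrp1ab*, a receptor for apoE-bearing remnants (201 and 66.3 CPM, -1.60), while the low density lipoprotein receptor gene *ldlra* had 167 and 206 CPM (0.30). Of 3 efflux genes, 0 were higher and 2 lower, and of 6 regulators of liver lipid genes, 0 were higher and 2 lower. *abca1a*, which loads lipid onto apoA-I, had 492 and 331 CPM (-0.57). These shares of lower genes stand beside a background of 30.1%.

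Macrophage-gated cells (381 control and 356 mutant) carried *apoeb* and *apoc1*, the neighbouring pair. *apoeb* was read at 1818 CPM (1776 to 1860) in control cells and 3431 CPM (3373 to 3489) in mutant cells, above its hepatocyte level in both. *apoc1* was read at 1195 CPM (1161 to 1230) and 4004 CPM (3941 to 4067). By UMIs, *apoeb* ranked 74 and 37 and *apoc1* 125 and 27 among all genes in these cells. The median macrophage-gated cell of the control held 0 of either gene, with 10238 CPM of *apoeb* and 8641 CPM of *apoc1* at the 95th percentile. Both transcripts thus came mainly from a small set of the gated cells, and 50% of the *apoeb* UMIs lay in 18 control and 27 mutant cells.

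The same cells held both genes. In the control 73 of 381 cells (19.2%) and in the mutant 112 of 356 (31.5%) held at least 5 UMIs of each, against 267 and 202 with fewer than 5 of both, and over the cells the 2 genes correlated at r = 0.82 and 0.83. In the cells with both, 5 microglia markers (*p2ry12*, *slc7a7*, *havcr1*, *hexb* and *csf1rb*) summed to 1251 CPM (control) and 2754 CPM (mutant), and in the cells with neither to 530 and 1691 CPM. The 11 macrophage markers summed to 2192 against 2104 CPM in control cells and to 4180 against 6267 CPM in mutant cells. Globin genes summed to 26089 CPM in control cells with both and 100469 CPM in those with neither, so the control cells with neither held more blood RNA. In mutant cells the globin sums were 1.71 and 1.72 CPM. The split was made after the values were seen, and it is given with no test.

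Thinned to 2000 UMIs per cell, 31.9% (27.2 to 37.0) of control and 41.6% (36.4 to 47.1) of mutant macrophage-gated cells held *apoeb*, against 38.8% and 50.6% unthinned. In control blood, which is not known to express it, the thinned share was 1.40% (1.12 to 1.74). Median depths were 8498 and 10490 UMIs in the macrophage-gated cells and 6467 in blood. To set *apoeb* against liver RNA in the suspension, its UMIs were divided by those of 11 liver reference genes (such as the fibrinogen genes) and compared with the same quotient in hepatocyte-gated cells of that library. A gene that came only from free liver RNA would give a value near 1 if that RNA kept the proportions of hepatocyte-gated cells. The liver genes *tfa* and *fabp10a*, which the hepatocyte gate itself uses, gave 0.30 and 0.57 in control and 0.42 and 0.70 in mutant macrophage-gated cells. *apoeb* gave 2204 (1963 to 2482) for control and 13210 (11608 to 15097) for mutant cells, and *apoc1* lay between 80.0 and 101 and between 68.9 and 89.5, while *apoa2* gave 0.45 and 0.58. The value for *apoeb* rested on the denominator and the gates: with *tfa* and *fabp10a* as reference it was 5241 and 24280, and with stricter gates 3450 in the control.

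Between the libraries, *apoc1* had a log2 ratio of 1.74 (1.70 to 1.79) and *apoeb* one of 0.92 (0.87 to 0.96) in macrophage-gated cells. Of the 7 members with at least 100 UMIs there, 1 was at least 2-fold higher and 0 were lower, beside 10.7% higher and 17.3% lower among 6304 genes, and the median was 0.18 against 0.05 for those genes. The gate's own content moved with genotype. The macrophage markers summed to 2173 CPM (control) and 5508 CPM (mutant), the blood markers to 77004 and 19.5 CPM, and the exocrine pancreas markers to 4.59 and 3067 CPM, the last of which lay in the cells with neither gene (14.5 CPM in those with both and 5154 CPM in those with neither). Their part in the ratios was not tested. Leaving out the 3 control and 2 mutant barcodes that were *fabp2*/*fabp1b.1*-rich, 5 members had at least 100 UMIs, of which *apoc1* was at least 2-fold higher (1.75) and *apoa4b.1* at least 2-fold lower (30.8 and 8.78 CPM, -1.81, -2.41 to -1.25), and *apoeb* had 0.93. With at least 3 UMIs required of the gating genes the ratios were 1.22 for *apoc1* and 0.37 for *apoeb*.

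Skin-gated cells were few, 40 in the control and 15 in the mutant, and *apoeb* was the most abundant member in them, at a level below that of macrophage-gated cells. It was read at 1245 CPM (1155 to 1342) and 1016 CPM (902 to 1140), in 67.5% and 80.0% of cells, with 23.6% and 27.9% of the UMIs in a single cell. *apoc1*, its genomic neighbour, had 8.95 and 21.0 CPM there, and *apoba* and *apoea* had 0 UMIs in both libraries, which allows up to 5.37 CPM for control and 10.5 CPM for mutant cells (3 UMIs). The pair therefore parted in skin. Outside the gates, 67 control and 16 mutant cells of the rest that were not *fabp2*/*fabp1b.1*-rich held at least 10 UMIs of *apoeb*, and in these the 10 skin markers summed to 6233 and 5208 CPM, against 742 and 2170 CPM in rest cells with no *apoeb*. In 1 mutant rest cell there were 471 of the 1100 *apoc1* UMIs of that group.

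The barcodes rich in *fabp2* and *fabp1b.1*, intestinal fatty acid binding proteins, were picked after the data were seen, as kept barcodes outside the hepatocyte gate with at least 0.5% of their UMIs in these genes. There were 111 such control and 96 such mutant barcodes, spread over the rest (83 and 64), the hair cell gate (21 and 9) and other gates. The 6 remaining enterocyte markers, *chia.1*, *chia.2*, *cdx1b*, *vil1*, *slc15a1b* and *rbp2a*, were all detected there and summed to 5598 and 8440 CPM. Against these stood 118 and 347 CPM in hepatocyte-gated cells. By the fixed marker list they are enterocyte-like, though 9647 CPM of blood markers was also read in the control set.

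In the enterocyte-like barcodes a second set of copies was read. *apoa1a* reached 721 CPM (691 to 752) in control and 1508 CPM (1461 to 1557) in mutant barcodes, which is above its hepatocyte levels of 14.2 and 26.5 CPM. *apoea* stood at 131 CPM (118 to 144) and 381 CPM (357 to 406), against 1.65 and 0.77 CPM in hepatocyte-gated cells. *apoa1b* in turn was far below its hepatocyte levels, at 308 and 245 CPM, in barcodes that by definition failed the hepatocyte gate. Its quotient against the liver reference genes was still above 1 there, at 3.25 (2.73 to 3.88) and 2.07 (1.71 to 2.53). The copies of the A-I pair and of the E pair thus had their highest levels in different cell groups. *apoa1b* was highest in liver and *apoa1a* in enterocyte-like cells, *apoeb* in macrophages and then skin, and *apoea* in enterocyte-like cells. The division was not complete, since *apoeb* was also read in the enterocyte-like barcodes at 130 and 126 CPM. That was close to *apoea* in the control and above the hepatocyte levels of *apoeb*, 105 and 65.0 CPM. The control value, from 387 UMIs, rested in part on 3 barcodes that also passed the macrophage gate. Macrophage-gated *apoeb* UMIs were 7123 with and 6958 without them in the control. In the mutant the counts were 13402 and 13399. With at least 1% of UMIs in *fabp2* and *fabp1b.1* required, control *apoeb* was 93.2 CPM, below its hepatocyte level and below *apoea* (198 CPM). Mutant *apoeb* was then 134 CPM. With 0.2% required, *apoeb* was 114 and 124 CPM.

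The apoB genes differed in that *apobb.1* was read in both groups and *apoba* almost wholly in liver. *apobb.1* was read at 429 and 656 CPM in the enterocyte-like barcodes, above its hepatocyte levels of 254 and 518 CPM, while *apoba* had 1.68 and 3.91 CPM there against 121 and 462 CPM in liver. *apobb.2* had 0 UMIs in this set in both libraries. *apoa4b.1* was read in both groups too, with 1430 and 2346 CPM against 1305 and 2498 CPM in liver, and its tandem copy *apoa4b.2* stood at 411 and 886 CPM against 13.6 and 9.24 CPM. At thresholds of 0.2% and 1%, which gave 157 and 58 control barcodes, control *apoa1a* stood at 607 and 1007 CPM, so the level, but not its place above liver, moved with the threshold.

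Within the enterocyte-like barcodes the mutant library was higher for *apoea* (log2 ratio 1.54, 1.37 to 1.72), *apoa1a* (1.06, 0.99 to 1.14), *apoa2* (0.76), *apoa4b.1* (0.71) and *apobb.1* (0.61). It was lower for *apoa1b* (-0.33, -0.48 to -0.18), and the intervals of *apoeb* (-0.05, -0.27 to 0.17), *apoc1* (0.23, -0.15 to 0.61) and *apoba* (1.22, -0.47 to 3.12) included 0. Most of the 115 control *apoc1* UMIs of the set lay in 3 barcodes that also passed the macrophage gate. Macrophage-gated *apoc1* UMIs were 4685 with and 4590 without them in the control, and 15640 either way in the mutant. Ratios of the set without the macrophage-gated barcodes were not computed. The differences between the libraries moved with the threshold, and at 1% the set held 58 control and 83 mutant barcodes. They were then smaller for *apoea* (198 and 411 CPM), *apoa1a* (1007 and 1584 CPM) and *apoa4b.1* (1914 and 2500 CPM). For *apoa1b* (368 and 243 CPM) and *apoc1* (6.01 and 44.1 CPM, the control from 10 UMIs) they were larger. Because the barcodes picked at 0.5% made up 0.638% of control and 1.15% of mutant kept barcodes, levels of the genes they carry are given with and without them. In the rest, *apoa1a* had 22.7 CPM (control) and 171 CPM (mutant; log2 ratio 2.91). Without blood and enterocyte-like barcodes it had 7.69 and 7.31 CPM (-0.07, -0.40 to 0.25). In neuron-gated cells it had 4.33 and 31.7 CPM (2.87), and without them 2.74 and 2.15 CPM (-0.35, -0.91 to 0.19).

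Hair cell-gated cells held no member at the level of its main cell group. *apoa1a* had 33.0 CPM (control) and 35.0 CPM (mutant), which became 5.50 and 2.17 CPM without the enterocyte-like barcodes, and *apoa4b.1* went from 71.6 and 58.4 CPM to 16.0 and 8.70 CPM. *apoeb* had 23.9 CPM (21.7 to 26.4) and 5.48 CPM (4.21 to 7.01) without them, a log2 ratio of -2.13 (-2.53 to -1.74), with 4 control cells holding 50% of the control UMIs. After thinning, 1.68% (1.01 to 2.61) of control hair cell-gated cells held *apoeb*, against 1.40% (1.12 to 1.74) in control blood, so the intervals overlapped. The thinned level was 24.3 CPM against 8.06 CPM in blood. Without the enterocyte-like barcodes the quotient against the liver reference genes was 50.9 in control hair cell-gated cells, against 16.0 in control blood. In mutant hair cell-gated cells it was 35.4, which cannot be set against control blood. Each quotient is divided by its own library's hepatocyte proportion, 2594 *apoeb* to 240745 reference UMIs in the control and 929 to 214272 in the mutant. The source of these UMIs was not tested. In control neuron-gated cells the thinned share was 4.50% (3.83 to 5.24), above the control blood share, at a median depth of 6951 UMIs. For mutant neuron-gated cells it was 3.35% (2.76 to 4.02) at 5377 UMIs, with no blood group in that library to compare.

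*apoa2* and *apoa1b* were read at a low level in every group. In groups other than hepatocyte-gated cells, and with the enterocyte-like barcodes left out, *apoa2* lay between 106 and 228 CPM and *apoa1b* between 49.4 and 88.0 CPM, and both were present in blood at 180 and 86.4 CPM. Relative to the liver reference genes both were mostly below the proportion of hepatocyte-gated cells, by an amount that varied between groups. The quotient for *apoa2* ran from 0.44 in the control rest without blood and enterocyte-like barcodes (0.42 to 0.45) to 1.07 in control skin (0.63 to 1.90), and that for *apoa1b* from 0.43 (0.41 to 0.45) to 1.08 in the same groups. In control blood it was 0.90 (0.86 to 0.94) for *apoa2* and 0.87 for *apoa1b*, and in mutant neuron-gated cells 0.76 and 0.64. Thinned shares of cells with *apoa2* were 32.7% in control blood, 19.1% in control hair cell-gated cells and 31.1% in mutant hair cell-gated cells. Several of the quotients had intervals that excluded 1, and the source of these low levels was not tested. In barcodes with fewer than 500 genes, which entered no comparison, *apoa2* reached 442 CPM (control) and 931 CPM (mutant).

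**Figure D5:**
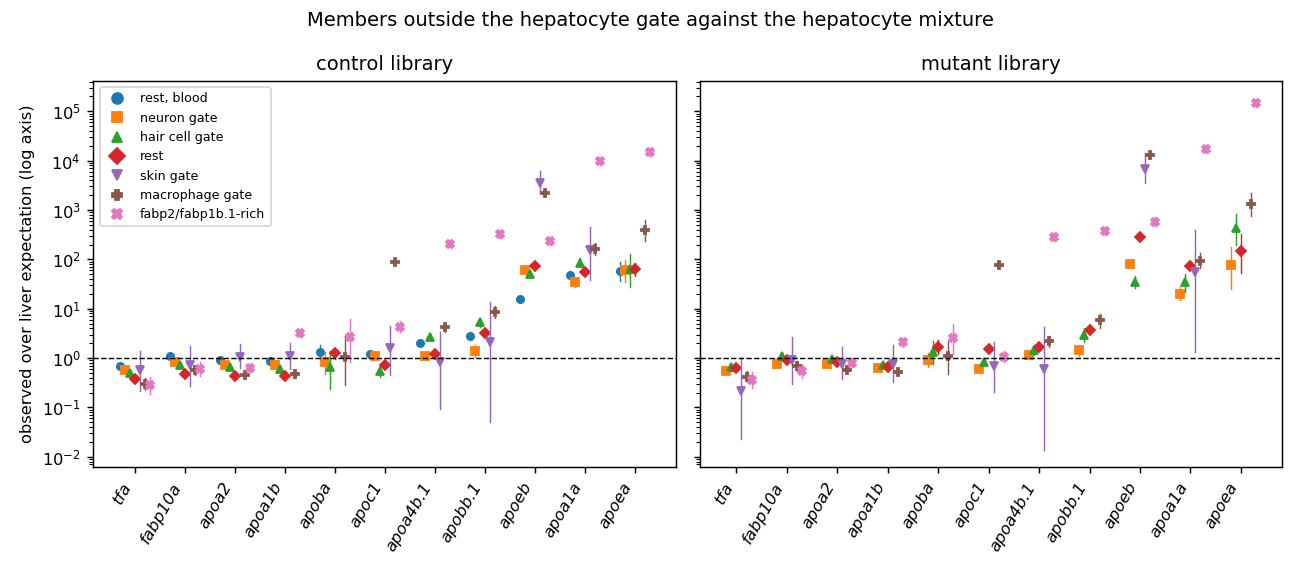
Observed UMIs of each member and of *tfa* and *fabp10a* divided by the number that the group's liver reference UMIs would give at the hepatocyte mixture (log axis), by cell group in the control (left) and mutant (right) library, with Clopper-Pearson 95% intervals; the dashed line is 1, and genes at 0 UMIs are not drawn. Neuron, hair cell and rest groups are without the *fabp2*/*fabp1b.1*-rich barcodes. *apoa2* and *apoa1b* lie between 0.43 and 1.08 outside the *fabp2*/*fabp1b.1*-rich barcodes, *apoeb* lies at 2204 and 13210 in macrophage-gated cells, and *apoa1a* and *apoea* lie highest in the *fabp2*/*fabp1b.1*-rich barcodes.

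Outside the liver gate *apoc1* and *apoba* were also higher in the mutant library. *apoc1* in neuron-gated cells without enterocyte-like barcodes was 10.4 CPM (control) and 31.3 CPM (mutant; log2 ratio 1.59, 1.39 to 1.79), and in hair cell-gated cells 4.14 and 25.7 CPM (2.63), while its quotient against liver was 1.11 and 0.61 in neurons and 0.55 and 0.84 in hair cells. *apoba* had 0.55 and 1.72 CPM in the same neurons. Over all cells outside the hepatocyte gate the 9 genes summed to 455 and 1189 CPM, a log2 ratio of 1.39 (1.37 to 1.40). The largest differences were for *apoc1* (45.4 and 347 CPM) and *apoeb* (96.7 and 307 CPM), the latter read chiefly in macrophage-gated cells. This sum pools groups in unlike proportions, with 381 of 16096 control but 356 of 7555 mutant cells macrophage-gated, and 5972 and 0 blood cells. By group the summed log2 ratio was 1.23 in macrophage-gated cells, 1.38 in the rest, 0.74 in neuron-gated, 0.24 in hair cell-gated and -0.24 in skin-gated cells. With enterocyte-like barcodes left out it was 1.25 in macrophage-gated, 0.47 in neuron-gated and 0.41 in hair cell-gated cells. In the rest without blood and enterocyte-like barcodes it was 0.46.

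Over the 12 points of 6 cell groups in 2 libraries, log2(CPM + 10) of each member was correlated with that of 21694 genes. The points are the same gated groups as above, so the coefficients restate those levels, and *fabp10a* is itself a gating gene. The genes most like *apoa1b* were *apoa2* (r = 1.00), *serpinf2a* and *cfhl4*, and those most like *apoa2* were *apoa1b*, *fabp10a* and *zgc:123103*. *apoba* was most like *urad*, *serping1* and *cbln17*. *apoa4b.1* and *apobb.1* shared *apoc2* as their nearest gene (0.99 and 1.00) and were among each other's nearest 3. *apoa1a* was most like *cyp2k19*, *cyp3c4* and *apoa4b.2* (0.97, 0.96 and 0.96), and *apoea* most like *osr2*, *slc15a1a* and *si:ch211-266a5.12*. *apoeb* was most like *rac2* (0.96), *cyp2k8* and *lpar6a*, and *apoc1* most like *stra6l*, *sdr16c5b* and *zgc:174904*. Between copies the coefficients were 0.02 for *apoa1a* with *apoa1b* and -0.12 for *apoea* with *apoeb*, but 0.90 for *apoba* with *apobb.1*. The points share libraries, so these values are descriptions and carry no p.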

How the data were processed

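Single-cell RNA was read from 2 libraries, 1 control and 1 mutant. As deposited by the authors, values are unnormalized UMI counts for each gene in each barcode, made with Cell Ranger 7.1.0 (control) and 9.0.1 (mutant) per the file headers, and the submitters' processing notes name build GRCz11. Counts were summed by symbol. Barcodes with at least 500 genes and at most 20% mt- UMIs were kept. No doublet caller was run. The study's sort gated against doublets, and barcodes passing 2 or more gates were set aside (482 control, 468 mutant). UMIs were summed per group and library and divided by the group total (CPM). Intervals are exact Poisson (CPM), conditional binomial (ratios) and Clopper-Pearson (shares), at 95%. PCR duplicates are removed by UMIs, and the intervals cover counting error only. Cells were thinned to 2000 UMIs for shares (21 control and 15 mutant macrophage-gated cells were shallower). Python 3.11.15, numpy 2.4.6, scipy 1.17.1 and pandas 2.3.3 were used. In simulated hepatocyte-gated counts of 10914 genes, 95.0% of the intervals of 200 changed genes held the true ratio. Named genes are the members, genes of fixed pathway lists (at least 10 UMIs over both libraries) and, per member, the 3 most alike genes. Of the listed genes, *apoa4b.3*, *apoh*, *hpx* and *tmc1* were not matched by symbol. Members and lists were chosen with earlier results of these data known. Promoter and protein sequences were not used here.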

Additional observations from a re-analysis of the deposited data

Results flagged for a closer look

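For *apoeb*, *apoa4b.1* and *apoa1a* the libraries differed in opposite directions in macrophage-gated and hepatocyte-gated cells, with counting intervals that excluded 0 in both. The share of all genes that did the same was not counted, so these members cannot be set against a general rate. With 1 library per genotype the difference was not tested. The log2 ratio of *apoeb* was 1.60 higher in macrophage-gated cells (0.92 against -0.69), that is, 1818 and 3431 CPM in macrophages against 105 and 65.0 CPM in liver cells. The log2 ratio of *apoa4b.1* differed by -1.92 (-0.98 against 0.94) and that of *apoa1a* by -1.77 (-0.86 against 0.91). The values of *apobb.1* also had opposite signs (-0.53 against 1.03), but the macrophage interval included 0 (-1.10 to 0.03). For these last 3 genes the macrophage-gated UMIs were few and lay partly in enterocyte-like barcodes. Without those, *apoa4b.1* had 118 and 34 UMIs (log2 ratio -1.81, -2.41 to -1.25), *apoa1a* 33 and 6 (-2.47, -4.02 to -1.20) and *apobb.1* 47 and 6 (-2.98, -4.50 to -1.76).

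Barcodes with fewer than 500 genes entered no comparison, yet they held *apoa2* at 442.1 CPM (control) and 930.9 CPM (mutant), above the level in kept cells outside the hepatocyte gate (153 and 207 CPM). In these barcodes features named for the mitochondrial genome took 58.7% of control and 31.7% of mutant UMIs.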

How the results depend on the processing

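No paired analysis was possible because there is 1 library per genotype, and for the same reason no library could be left out. The summed log2 ratio in hepatocyte-gated cells (1.14) stayed above 0 in every alternative. It was 1.18 with the first gate passed, 1.12 with all barcodes, 1.33 relative to the median gene, 1.25 with the members left out of the totals, 1.05 thinned, 1.05 as a mean of cell shares, 0.89 without the 5% deepest barcodes, 1.11 without globin-rich barcodes and 1.00 with mitochondrial features left out of the totals. Outside the gate the sum (1.39) was, apart from unmoved settings, 1.36 with all barcodes, 1.21 with stricter gates, 1.18 relative to the median gene, 1.12 thinned, 1.06 as a mean of cell shares, 1.34 without the deepest, 1.16 without globin-rich, 1.305 without mitochondrial features and 1.32 without *fabp2*/*fabp1b.1*-rich barcodes. The quotient of *apoeb* against liver in macrophage-gated cells (2204 and 13210) was 3450 (control) with stricter gates, 1933 and 9577 thinned, 1284 and 10600 as a mean of cell shares, 5241 and 24280 with *tfa* and *fabp10a* as reference, 17170 (mutant) with the fibrinogen genes, 8166 (mutant) with the first gate and 10510 (mutant) without the deepest. The number of members past 2-fold in hepatocyte-gated cells (4) was 8 with the first gate or at 1.5-fold, 7 relative to the median gene or without the members in the totals, and 2 when thinned, as a mean of cell shares, without the deepest, or without mitochondrial features. Of the members' own ratios, only that of *apoea* (-1.10) changed sign, to 2.09 with the first gate, and with the few UMIs left it could not be computed when thinned or without the deepest. *apoc1* ran from 2.79 to 3.12 and *apoba* from 1.79 to 2.22. The settings on mitochondrial features and *fabp2*/*fabp1b.1*-rich barcodes were chosen after seeing the data. The causes of these shifts were not tested. Few UMIs limited *apoea* in liver cells (41 and 11), and the number of cells limited the mutant skin-gated group (15).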
